A study of Sus scrofa with 6 samples.

Results

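In backfat DNA of Landrace and Rongchang pigs, 23 stretches of the autosomes held differentially methylated regions (DMRs) packed close together. These dense blocks were found by position alone. The DMRs were sorted along each chromosome, neighbours at most 100000 bp apart were joined, and blocks of at least 20 DMRs on chr1 to chr18 were kept, apart from the chr8 block that holds KIT. They contained 583 DMRs, or 4.12% of the 14163 DMRs in the table and part of the 12866 on autosomes. The remaining 12283 autosomal DMRs are called the other autosomal DMRs below. Both groups were female, shared the same housing and were slaughtered at day 210. The tissue was backfat from between the last ribs, from 3 Landrace pigs (LBF), the leaner breed, and 3 Rongchang pigs (RBF), the fatty breed, with 1 library per pig. Each breed was therefore represented by 3 animals of a single sex, age and herd environment. The labelled tissue could not be checked against marker genes, because no expression was measured in these files.

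DNA methylation in mammals sits mainly on the cytosine of CpG dinucleotides. In promoters rich in CpGs it usually goes with silence of the gene, whereas bodies of active genes are commonly methylated, so the same mark has different associations at different elements. Methylated DNA immunoprecipitation (MeDIP-seq) collects fragments with an antibody against methylated cytosine, and the read depth over a CpG increases with its methylation and with the local number of CpGs. The value given for a DMR is its normalized read depth, as deposited after the authors' scaling. The sources used here do not say whether that scaling was by library or by breed, and a scaling by breed and a difference between breeds cannot be told apart. Changes are given as log2 fold changes (LBF over RBF, computed on log2(depth + 1)), so that a positive value means more depth in LBF, and the added 1 shrinks the change of regions with low depth. Calls are those of limma with an adjusted p under 0.05 over all 14163 DMRs. In a whole tissue, another mix of cell types and another methylation level per cell cannot be told apart.

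Most DMRs of the dense blocks carried more methylation signal in LBF. Of the 583, 497 had the higher depth in LBF and 86 the lower. That is 85.2% higher (95% interval by the exact binomial method 82.1 to 88.0, which covers counting error only and treats DMRs as independent), against 84.3% of the other autosomal DMRs and 84.8% of all. DMRs higher in LBF had a median depth of 43.5 in LBF and 12.2 in RBF. Those lower in LBF had a median depth of 13.4 in LBF and 43.8 in RBF. The median log2 fold change was 1.69 (SD 1.57 over DMRs), against 1.61 for the other autosomal DMRs and 1.64 for the whole table. The dense blocks thus leaned to LBF by about as much as the table around them.

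Limma called 495 of the 583 higher in LBF and 83 lower, and left 5 uncalled. The table lists only regions that the authors had already selected as different on these same 6 pigs. As background, 99.5% of all listed DMRs passed the test (84.5% as higher and 15.1% as lower in LBF), and the breeds did not overlap in 100.0% of them, as in all 583 members. Near-complete calling inside the blocks is therefore no result about the blocks, and the tests describe the size of each difference and the spread between pigs. As an alternative, equal library medians gave all libraries a common median over the listed DMRs, and the median of all DMRs shifted by -1.41 on the log2 scale. Calls inside the blocks then numbered 73 higher and 96 lower in LBF, which is 43.2% higher among the called, against 85.6% with the authors' scaling. As shares these are 12.5% called higher and 16.5% lower, near the 11.3% and 17.0% of all listed DMRs under the same alternative, and so no result about the blocks. That alternative places zero at the middle of a set of regions that were selected for differing. Changes below are with the authors' scaling, on which the direction of 142 members depends.

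The libraries of a breed had like levels, apart from 1 RBF library. Over the 583 DMRs the median depth was 36.1, 37.9 and 39.4 in LBF, against 15.6, 15.6 and 9.81 in RBF. RBF replicate 3 was the lowest of its breed in 313 members (53.7%, against 54.1% of the other autosomal DMRs). A depth of 0 was listed for 4, 3 and 5 members in the LBF libraries, against 14, 12 and 34 members in RBF replicates 1, 2 and 3. Without RBF replicate 3 the median log2 fold change of the members was 1.42. Its block medians were the lowest of RBF in 21 of the 23 blocks.

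**Figure D1:**
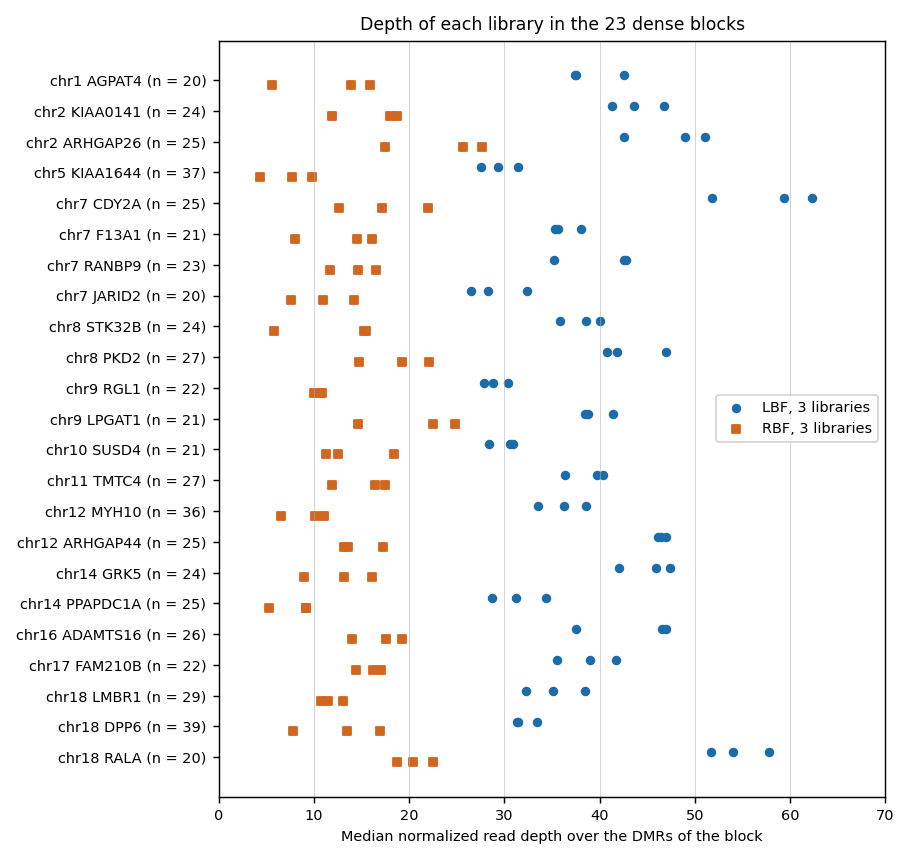
Median normalized read depth (x axis) over the DMRs of each dense block (rows, named by chromosome and the gene with most DMRs, with the number of DMRs), 1 point per library, LBF circles and RBF squares. In all 23 blocks the 3 LBF libraries lie above the 3 RBF libraries, with LBF medians of 26.4 to 62.4 and RBF medians of 4.36 to 27.6. The breeds did not overlap in 100.0% of all listed DMRs, and 84.8% of these were higher in LBF. The separation is therefore no result about the blocks, and depths are with the authors' scaling.

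The blocks lay on 13 chromosomes and spanned 13.9 Mb in all. They held 20 to 39 DMRs each (median 24) over 320 to 1072 kb (median 597 kb). Even here the DMRs themselves were sparse, since they covered 114 kb, or 0.82% of the span (0.383% to 1.39% per block). The shortest block, with AGPAT4 on chr1, and the densest, with the protocadherin gene PCDH12 on chr2 (6.84 DMRs per 100 kb), were 320 kb and 351 kb long.

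Most blocks were close to an end of the listed part of their chromosome. Measured to the outermost listed DMR of the chromosome, 21 of the 23 blocks lay within 15 Mb and 9 within 5 Mb. By DMR, 92.6% of the members and 40.1% of the other autosomal DMRs lay within 15 Mb, and 42.2% of the members and 13.1% of the others within 5 Mb. Chr18 carried 3 blocks, chr7 carried 4, and chr2, chr8, chr9, chr12 and chr14 carried 2 each. How many CpGs along the chromosomes could have been called was not computed here.

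At the edge of the rule, 3 blocks had exactly 20 DMRs, on chr1 with AGPAT4, on chr7 with JARID2 and on chr18 with RALA. A further 6 blocks with 19 DMRs, on chr4, chr8, chr11, chr14, chr16 and chr18, were left out. One of them, at chr8:139346170, starts less than 1 Mb before the PKD2 block.

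In size and annotation the members were close to the rest. Their median length was 152 bp against 147 bp, and their median number of CpGs was 7 in both. CpG density was 5.0 per 100 bp in members and 5.22 in the other autosomal DMRs. A DMR can be annotated to several elements. Intergenic sequence held 377 members (64.7%, against 65.4% of the others), introns 181 (31.0% against 29.5%), promoters 16 (2.74% against 2.69%), the 2 kb downstream of genes 14 (2.40% against 2.18%) and exons 12 (2.06% against 1.91%). CpG islands, the CpG-rich stretches often found at gene starts, held 5 members. Their flanks, the shores, held 44 members (7.55%, against 4.62% of the others), of which 42 were higher in LBF. These shares were not tested, since DMRs of 1 block are not independent.

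Direction went with the number of CpGs, inside the blocks and outside them. Members with at least 10 CpGs had the higher depth in LBF in 163 of 171 cases, and those with 5 or 6 CpGs in 181 of 241 cases. Among the other autosomal DMRs the counts were 2854 of 2977 and 4183 of 5460. By element, 16 promoter members were higher and 0 lower, 150 intron members higher and 31 lower, 326 intergenic members higher and 51 lower, 12 downstream members higher and 2 lower, and 9 exon members higher and 3 lower.

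Neighbours inside a block shared a direction about as often as neighbours elsewhere. Of 560 neighbouring pairs within the blocks, 431 had the same direction (77.0%), against 76.5% of 7151 other autosomal pairs at most 100000 bp apart. The shares of the directions alone give 75.1% and 74.0%, slightly below both. Neighbours less than 1 kb apart had the same direction in 21 of 26 pairs in the blocks and in 265 of 303 other pairs. The median gap was 16483 bp in the blocks and 24964 bp in the other pairs. A member that was lower in LBF was followed by another lower one in 17 of 82 cases (20.7%), against 23.6% of 1083 such cases in the other pairs. For comparison, 86 of all 583 members were lower, and 1934 of the 12283 other autosomal DMRs. No block held members of a single direction.

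The share of members higher in LBF ranged between 66.7% in the chr9 block with INTS7 and LPGAT1 (14 of 21) and 97.3% in the chr5 block with KIAA1644 (36 of 37). The largest block median was 2.19, in the chr12 block with MYH10 and NDEL1, and the smallest was 1.34, in the chr18 block with RALA. In all, 12 block medians were above the table median of 1.64 and 11 below it. With equal library medians every block median was smaller than its value here by more than 1.5 times, between -0.12 and 0.80, and those of the RALA block (-0.09) and the PKD2 block (-0.12) turned.

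**Figure D2:**
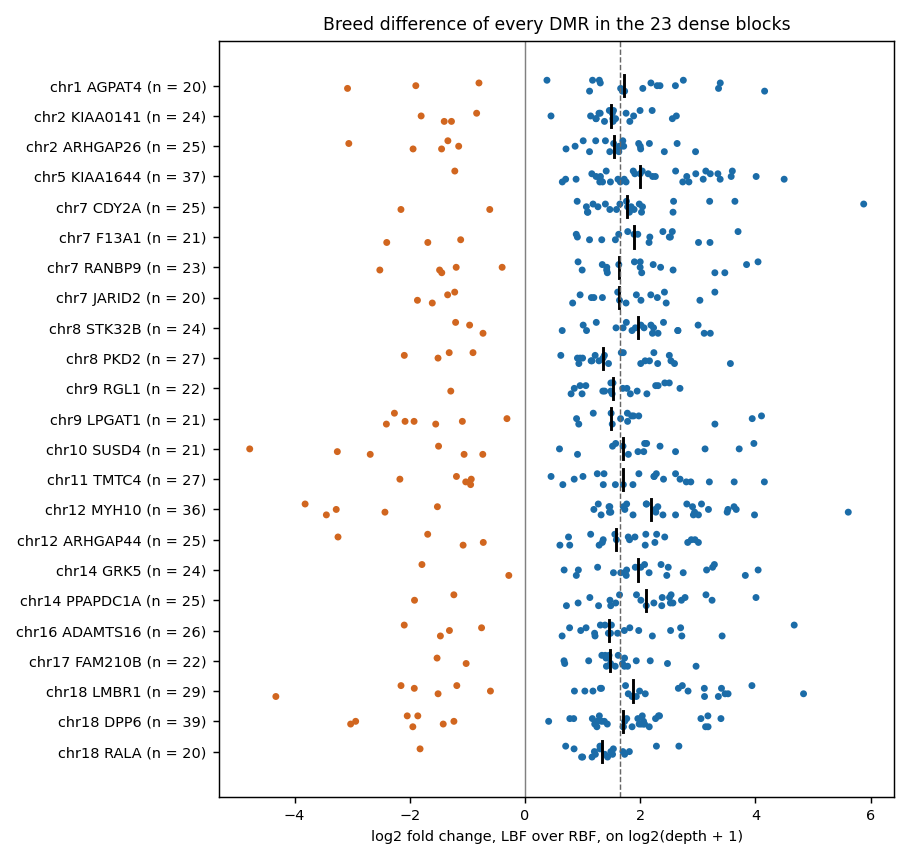
Log2 fold change, LBF over RBF (x axis), of every DMR in the 23 dense blocks (rows), with blue points higher and orange points lower in LBF, a black bar at each block median and a dashed line at the table median of 1.64. Block medians run between 1.34 and 2.19, and each block holds DMRs on both sides of 0.

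The 583 members were spread over the blocks as follows. Chr1 held the AGPAT4, MAP3K4 and PARK2 block, with 17 of 20 higher in LBF and a median log2 fold change of 1.71. On chr2, the block with KIAA0141, PCDH1, PCDH12, GNPDA1 and RNF14 had 20 of 24 higher (median 1.49), and the block with ARHGAP26 and FGF1 had 20 of 25 higher (1.54). On chr5, the KIAA1644, PHF21B, PRR5 and NUP50 block had 36 of 37 higher (2.0). The chr5 block was the most one-sided of all. The counts higher in these blocks became 12, 14, 14 and 26, in this order, with equal library medians.

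Chr7 carried the most blocks. The CDY2A and ECI2 block had 23 of 25 higher (median 1.76), the F13A1 block 18 of 21 (1.89), the RANBP9, MCUR1 and CD83 block 18 of 23 (1.63), and the JARID2 and DTNBP1 block 16 of 20 (1.62). On chr8, the STK32B and HMX1 block had 21 of 24 higher (1.96) and the ABCG2, PKD2 and SPARCL1 block 23 of 27 (1.35). Both SPARCL1 DMRs were higher, with a median of 1.37 that turned to -0.10 with equal library medians. Chr9 had a strongly one-sided block with RGL1 and COLGALT2, 21 of 22 higher (1.52), and the most mixed one, with INTS7 and LPGAT1 (1.49). Under equal library medians the counts higher were 16, 14, 12 and 11 on chr7, 17 and 12 on chr8, and 14 and 11 on chr9.

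On chr10, the SUSD4, TFB2M and SMYD3 block had 15 of 21 higher (median 1.70). The TMTC4 block of chr11 had 22 of 27 higher (1.71). On chr12, 31 of 36 were higher in the MYH10 block and 21 of 25 in the ARHGAP44 and ELAC2 block (1.59). These include some of the largest changes in both directions, described below. Equal library medians left 13 higher in the chr10 block, 15 in the chr11 block, and 28 and 14 in the blocks of chr12.

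On chr14, 22 of 24 were higher in the GRK5 block (median 1.96) and 23 of 25 in the PPAPDC1A block (2.10). The ADAMTS16 and ICE1 block of chr16 had 22 of 26 higher (1.46), and the FAM210B block of chr17, with CSTF1 and RTFDC1, 20 of 22 (1.47). The CSTF1 DMR turned to -0.36 and the median of both RTFDC1 DMRs to -0.07 with equal library medians. Chr18 began with the LMBR1 and RNF32 block, 23 of 29 higher (1.88), and the DPP6 block, 32 of 39 (1.71), and ended with the RALA block, 19 of 20. The DPP6 block was the longest and held the most DMRs. Equal library medians left 18 and 19 higher on chr14, 14 on chr16, 13 on chr17, and 18, 22 and 8 on chr18, so that the RALA block then had fewer DMRs higher than lower.

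All 16 promoter members were higher in LBF and called. Among all listed DMRs 84.5% were called higher, so a count of 16 is not far from the background. The promoter of INTS7, a subunit of the Integrator complex that processes small nuclear RNAs, held a pair of DMRs less than 200 bp apart. At chr9:144388722-144388942 the depth was 51.0, 49.5 and 56.2 in LBF, against 2.33, 2.55 and 1.49 in RBF. Every LBF pig was far above every RBF pig there (log2 fold change 4.11 with a standard error of 0.22, adjusted p = 0.0012 by limma). At chr9:144388394-144388578, in the promoter and an exon, it was 69.0, 64.6 and 65.9 in LBF, against 34.6, 30.3 and 41.9 in RBF, a smaller change of 0.89 that turned to -0.57 with equal library medians. Both also lie within 2 kb downstream of another transcript with INTS7 as its homologue.

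LPGAT1, an acyltransferase of phospholipid synthesis, lies in the same chr9 block. Its promoter DMR, in a CpG island shore, had depths of 40.8, 45.7 and 36.5 in LBF, against 0.218, 4.13 and 2.2 in RBF (log2 fold change 3.94). An intron DMR of the gene went the other way, with 7.75, 18.6 and 14.9 in LBF, against 59.4, 57.2 and 85.7 in RBF (-2.27). The breeds were apart at both, in opposite directions within 62.0 kb.

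RANBP9, a scaffold protein that binds Ran, had a promoter DMR on chr7 (10325213 to 10325276) that is also downstream of SIRT5, a mitochondrial deacylase. Depths were 35.2, 42.7 and 25.9 in LBF, against 1.52, 4.69 and 0 in RBF (log2 fold change 3.85). MYH10, the heavy chain of non-muscle myosin IIB, had 3 promoter DMRs side by side. The outermost, chr12:56377490-56377718, had depths of 33.3, 24.9 and 29.4 in LBF, against 2.20, 3.12 and 0 in RBF (3.67). The next, chr12:56376594-56376702, had 9.40, 13.5 and 15.03 in LBF, against 0, 1.56 and 1.08 in RBF (2.94). RBF depths below 5 marked these 3 DMRs, as they did LPGAT1 and the first INTS7 DMR described.

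The third MYH10 promoter DMR, chr12:56374483-56375657, covered 50 CpGs of a CpG island and reached into the gene. Its depths were below the library medians of the members in both breeds. They were 16.5, 22.4 and 19.1 in LBF, against 7.46, 4.94 and 2.32 in RBF (log2 fold change 1.88). With equal library medians the change was 0.56 and not called. CpG islands also held the promoter DMRs of MAP3K4, a kinase of stress signalling, and of CDY2A. MAP3K4 had the deepest promoter DMR, with 141, 141 and 128 in LBF, against 76.7, 72.9 and 29.9 in RBF (1.29, and -0.19 with equal library medians). Of its 3 DMRs, all higher with the authors' scaling, 1 was higher with equal library medians (median -0.15). The symbol CDY2A belongs in human to a Y-linked chromodomain gene, and here only names the human homologue given for a transcript on chr7. Its promoter DMR, the shortest member at 20 bp, had 16.1, 13.8 and 20.8 in LBF, against 3.05, 5.47 and 0 in RBF (2.57). With equal library medians the change was 1.57 and not called.

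The other promoter members were HMX1, a homeobox factor (log2 fold change 3.11), FAM210B (2.97), PCDH12, a protocadherin of cell adhesion (1.75), ELAC2, a tRNA-processing nuclease (1.34), PFAS, an enzyme of purine synthesis (1.32), and transcripts without a symbol on chr12 (2.09) and on chr10, inside a SUSD4 intron (2.06). HMX1 depths were 7.89, 13.4 and 11.9 in LBF, against 0, 1.56 and 0 in RBF. Its change was 3.82 with 0.5 added to the depths and 1.54 with 5 added. PFAS (-0.07) and ELAC2 (-0.06) turned with equal library medians, neither past the test. The promoter DMRs of PCDH12 (0.32) and FAM210B (1.95) then stayed higher but lost their call, and HMX1 (2.33) kept it. FAM210B, a mitochondrial protein, combined its promoter DMR of 18.1, 27.7 and 25.7 in LBF, against 3.43, 5.86 and 0 in RBF with an exon DMR of the opposite direction, 5.17, 9.02 and 9.49 in LBF, against 16.1, 15.6 and 18.1 in RBF (-1.02).

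**Figure D3:**
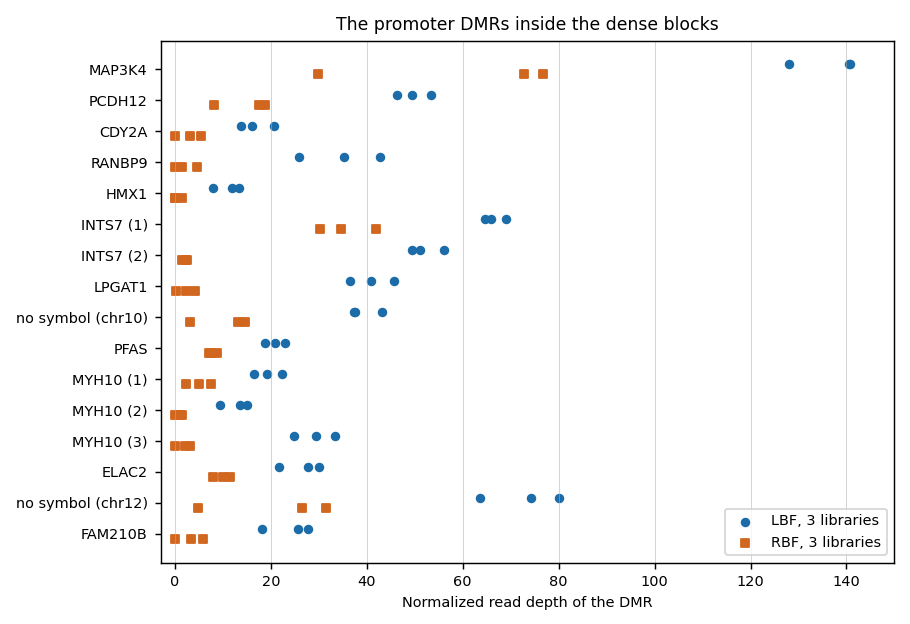
Normalized read depth (x axis) of each of the 16 promoter DMRs in the dense blocks (rows, by the gene of the promoter), 1 point per library, LBF circles and RBF squares. LBF lies above RBF in every row, and the RBF libraries lie below 5 at RANBP9, HMX1, LPGAT1, the second INTS7 row and the last 2 MYH10 rows.

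The remaining exon members were few. The exons of ABCG2 (log2 fold change 2.51), of FAM45A and SFXN4 (2.08) and of RGL1 (1.70) were higher in LBF. So were those of COLGALT2 (1.49), KRBA2 (1.20) and CD83 (0.99). With equal library medians KRBA2 (-0.26) and CD83 (-0.44) turned without passing the test. RGL1 (0.26), COLGALT2 (0.075) and FAM45A and SFXN4 (0.67) then lost their call, and ABCG2 (1.26) kept it. Exon DMRs of MYH10 (-1.52), MCUR1 (-1.19), a regulator of mitochondrial calcium uptake, and FAM210B were lower. The MYH10 promoter DMR of 50 CpGs, which is also annotated to an exon, was higher (1.88). CD83 is a marker of mature dendritic cells and B cells. Its exon depths were 29.6, 30.04 and 32.0 in LBF, against 16.5, 12.96 and 15.4 in RBF.

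Across the blocks, 199 members lay in or next to 67 genes with a symbol, and 384 had none. Of the 27 genes with at least 3 members, 14 had only DMRs higher in LBF, 1 had only lower ones, and 12 had both. All DMRs of these genes in the table belonged to the blocks. Roles given are those known from mammals, chiefly human and mouse.

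AGPAT4, an acyltransferase that makes phosphatidic acid on the route to phospholipids and triglycerides, had 10 intron DMRs within 94.3 kb of chr1, all higher in LBF and all called. Their mean depths were 17.4 to 86.0 in LBF and 2.81 to 38.7 in RBF, with log2 fold changes of 1.17 to 3.39 (median 2.12). With equal library medians 9 of the 10 were higher and 1 was called, and the DMR with the smallest change, at chr1:8383781-8383995, turned to -0.30. The largest, chr1:8337309-8337781, had depths of 28.3, 33.3 and 43.1 in LBF, against 5.11, 0.781 and 2.54 in RBF. At chr1:8352125-8352409 they were 25.2, 27.9 and 27.9 in LBF, against 1.76, 3.24 and 5.16 in RBF (2.75 with a standard error of 0.32, adjusted p = 0.0014 by limma). At chr1:8431517-8431568 the LBF values of 35.7, 50.3 and 52.0 stood against 18.6, 8.75 and 1.29 in RBF, a spread among RBF pigs as wide as their level. Of the 15 genes on the lipid and adipose list with a DMR in the table, only AGPAT4 lay in a dense block. That list is a set of picked genes without LPGAT1 and PPAPDC1A, which also have members.

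NDEL1, which regulates the motor protein dynein, had the largest median of the genes with only higher DMRs and at least 5 of them. Its 6 intron DMRs on chr12 had log2 fold changes of 2.26 to 3.98 (median 3.12), and all 6 were higher, 4 of them called, with equal library medians. At chr12:56329172-56329392 depths were 33.7, 37.0 and 31.8 in LBF, against 3.25, 1.56 and 0 in RBF. At chr12:56311659-56311840 they were 12.3, 14.0 and 8.50 in LBF, against 1.52, 0 and 0 in RBF. One of the 6 is shared with MYH10, the next gene.

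GRK5, a kinase that desensitizes G protein-coupled receptors, had 6 intron DMRs over 79.8 kb of chr14, all higher (0.93 to 2.49), of which 4 stayed higher and 1 was called with equal library medians. One of them, chr14:140668145-140668242, had depths of 54.3, 62.1 and 59.3 in LBF, against 21.3, 23.7 and 1.81 in RBF. RBF replicate 3 was far below its breed there. Nearby, PRDX3, a mitochondrial peroxiredoxin, had a downstream DMR of 65.3, 79.9 and 60.5 in LBF, against 12.4, 6.69 and 9.59 in RBF (2.75). An intron DMR of FAM45A and SFXN4 had the widest spread among RBF pigs, with 156, 149 and 133 in LBF, against 1.11, 69.6 and 23.2 in RBF (3.26 with a standard error of 1.20, adjusted p = 0.032).

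On chr7, 4 DMRs of RANBP9 were higher (1.42 to 3.85), of which 3 stayed higher and 2 were called with equal library medians. F13A1, the catalytic subunit of clotting factor XIII, had 5 intron DMRs higher over 138 kb (0.89 to 2.39, with 3 higher and 0 called with equal library medians). Its deepest, chr7:4099028-4099116, had 100.3, 88.2 and 104 in LBF, against 53.6, 44.0 and 59.9 in RBF. The median change was 1.57 for F13A1 and 2.91 for RANBP9.

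ABCG2, an efflux transporter of drugs and urate, had 4 DMRs on chr8, all higher in LBF (1.0 to 3.57), with 3 higher and 2 called with equal library medians. The intron DMR chr8:140114326-140114374 had depths of 18.01, 11.6 and 20.6 in LBF, against 0, 1.56 and 0.215 in RBF. The exon DMR, chr8:140228666-140228862, had 16.2, 23.5 and 20.4 in LBF, against 5.08, 2.78 and 1.15 in RBF. ABCG2 was the only one of 12 ABC transporter genes with a DMR in the table that lay in a dense block. It sits next to PKD2, whose DMRs were mixed.

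On chr9, RGL1, an exchange factor for Ral GTPases, had 5 DMRs higher (0.96 to 2.43), and COLGALT2, a galactosyltransferase of collagen, had 4 (0.86 to 2.12). With equal library medians 4 and 2 of them stayed higher and none was called. Another gene of Ral signalling, RALA itself, had 1 downstream DMR in the last block of chr18, with 45.1, 47.9 and 54.4 in LBF, against 25.7, 20.5 and 16.8 in RBF (1.20, and -0.25 with equal library medians). SUSD4, a regulator of complement, had 5 DMRs higher (0.60 to 2.34), of which 1 was called higher and 1 lower with equal library medians. TMTC4, an O-mannosyltransferase of cadherins, had 4 (1.01 to 3.20, with 2 higher and 1 called with equal library medians), and KIAA1644 had 3 (1.75 to 3.60, with 3 higher and 1 called).

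The chr5 block around KIAA1644 had many RBF depths near 0 towards that gene. At chr5:2230623-2230703 in a KIAA1644 intron the depth was 14.5, 19.2 and 23.9 in LBF, against 2.67, 0.195 and 0 in RBF. At chr5:2095549-2095640, between genes, it was 29.0, 38.3 and 45.9 in LBF, against 0, 3.79 and 0 in RBF (4.50). The last 11 DMRs of the block, starting at chr5:2095549, had log2 fold changes of at least 1.75, and 9 of them of at least 2.85. The only lower member of the block, chr5:1816870-1816974, had 11.2, 12.5 and 13.2 in LBF, against 29.7, 26.6 and 33.8 in RBF (-1.22).

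ARHGAP26 held more members than any other gene, 21 DMRs over 349 kb of introns on chr2. Of these, 16 were higher and 5 lower in LBF, all called. With equal library medians 11 were higher, and 2 were called higher and 5 lower. The largest change was a decrease in LBF at chr2:150858945-150859098, the last DMR of the gene, with depths of 5.87, 14.95 and 13.1 in LBF, against 91.1, 79.0 and 120 in RBF (log2 fold change -3.06 with a standard error of 0.37, adjusted p = 0.0015 by limma). The largest increase, chr2:150712081-150712292, had 63.1, 78.0 and 68.9 in LBF, against 6.86, 16.3 and 4.52 in RBF (2.96). The next 2 DMRs were lower in LBF, chr2:150716733-150716951 with 18.01, 14.6 and 24.3 in LBF, against 53.6, 45.0 and 59.8 in RBF (-1.45), and chr2:150723655-150723797 (-1.15). The direction thus turned within 5 kb. The deepest member of all, chr2:150564526-150564594, was also in ARHGAP26, with 230, 191 and 211 in LBF, against 117, 133 and 134 in RBF (0.71).

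ADAMTS16, a secreted metalloprotease, had 12 intron DMRs over 116 kb of chr16, 10 higher and 2 lower in LBF. With equal library medians 6 were higher, and 1 was called higher and 3 lower. The first of them, chr16:82651227-82651372, had depths of 36.4, 35.6 and 37.0 in LBF, against 2.13, 0 and 0 in RBF (log2 fold change 4.67). The next DMR, less than 1 kb on at chr16:82652107-82652171, was lower, with 17.2, 23.5 and 17.3 in LBF, against 55.5, 65.6 and 44.9 in RBF (-1.47). The LBF pigs had nearly the same depth at the first, and the breeds changed places at the second.

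PKD2, a cation channel of the primary cilium, had 6 intron DMRs within 20.2 kb of chr8. The outermost on each side were lower in LBF (-0.90 and -1.32) and the 4 between them higher (0.91 to 1.28), but with equal library medians all 6 were lower, 2 of them called. JARID2, a component of Polycomb repressive complex 2, had 5 of 6 higher (4 with equal library medians), the last one being lower at 18.8, 13.9 and 19.9 in LBF, against 50.0, 53.1 and 35.6 in RBF (-1.34). DTNBP1, the next gene with a DMR, was also lower (-1.22). STK32B, a serine/threonine kinase, had 5 of 6 higher (4 with equal library medians), of which the largest, chr8:4926681-4926952, had 77.9, 67.8 and 72.8 in LBF, against 5.76, 11.1 and 8.46 in RBF (3.0).

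Mixed directions were also found in PPAPDC1A (3 of 5 higher), CDY2A (4 of 5), RNF32 (2 of 3), LMBR1 (1 of 3) and DPP6 (1 of 3). With equal library medians 3, 2, 0, 1 and 0 of them were higher. PPAPDC1A encodes a phosphatidate phosphatase. Its lower DMR chr14:141962923-141963098 had 4.23, 22.9 and 17.3 in LBF, against 46.6, 45.9 and 54.5 in RBF (-1.92), with LBF replicate 1 well below its breed. An intron of LMBR1 is known in mammals for a limb enhancer of the neighbouring SHH gene, and no DMR was placed relative to it here. The LMBR1 DMRs had log2 fold changes of -0.60, 2.66 and -1.18. DPP6, an auxiliary subunit of potassium channels, began with 2 lower DMRs (-1.95 and -3.03), and the last was higher, with 83.3, 76.6 and 88.7 in LBF, against 31.5, 45.5 and 21.2 in RBF (1.38, and lower with equal library medians).

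Lower members mostly stood alone. The longest run was 5 in a row, all in MYH10, between chr12:56144035 and 56225112 (81.1 kb), with log2 fold changes of -3.82 to -1.52. All 5 were called, also with equal library medians. At chr12:56187766-56188026 depths were 2.78, 0.703 and 4.75 in LBF, against 43.1, 43.9 and 51.4 in RBF (-3.82 with a standard error of 0.44, adjusted p = 0.0014 by limma). At chr12:56188456-56188624 they were 1.85, 0 and 2.37 in LBF, against 16.8, 23.9 and 27.3 in RBF (-3.45). The exon DMR, chr12:56176548-56176823, had the most depth of the run, 33.1, 40.1 and 57.7 in LBF, against 122, 115 and 135 in RBF. MYH10 thus had 5 DMRs lower in LBF at one end and 6 higher at the other, from chr12:56353067 to its promoter.

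The next longest run, 4 in a row over 152 kb, opened the chr10 block. All 4 were in introns of transcripts of TFB2M, a factor of mitochondrial transcription, and 2 of them also in SMYD3, a lysine methyltransferase. At chr10:21462452-21462493 depths were 0, 10.7 and 0 in LBF, against 67.8, 54.4 and 62.8 in RBF (log2 fold change -4.78 with a standard error of 0.95, adjusted p = 0.0037). LBF replicate 2 alone had signal there within its breed. At chr10:21436907-21437029 they were 2.11, 0 and 0 in LBF, against 12.8, 14.1 and 12.1 in RBF (-3.26), and at chr10:21395152-21395305 they were 0.783, 2.15 and 3.76 in LBF, against 19.3, 20.05 and 15.7 in RBF (-2.69). TFB2M was the only gene with at least 3 members and all of them lower in LBF, and all 4 were called lower with equal library medians too.

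Beyond this run the chr10 block was mostly higher in LBF. An intron of SCCPDH had 33.4, 30.5 and 28.3 in LBF, against 5.81, 0 and 1.05 in RBF (3.72), and the first DMR after the run, chr10:21565904-21566061, had 41.6, 40.6 and 37.4 in LBF, against 7.24, 0 and 1.13 in RBF (3.97). TLR5, the receptor for flagellin, had an intron DMR with 24.2, 28.6 and 22.8 in LBF, against 7.62, 11.6 and 1.03 in RBF (2.11). Runs of 3 lower members occurred on chr1, starting in PARK2, the ubiquitin ligase parkin, and on chr7, ending in MCUR1. The PARK2 intron DMR of that run had 6.17, 6.93 and 2.37 in LBF, against 61.9, 37.3 and 47.3 in RBF (-3.08). The other PARK2 intron DMR of the block was higher in LBF (1.12), but with equal library medians 0 of these 2 were higher. PARK2 had 14 DMRs in the whole table. A further 6 runs held 2 members each.

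**Figure D4:**
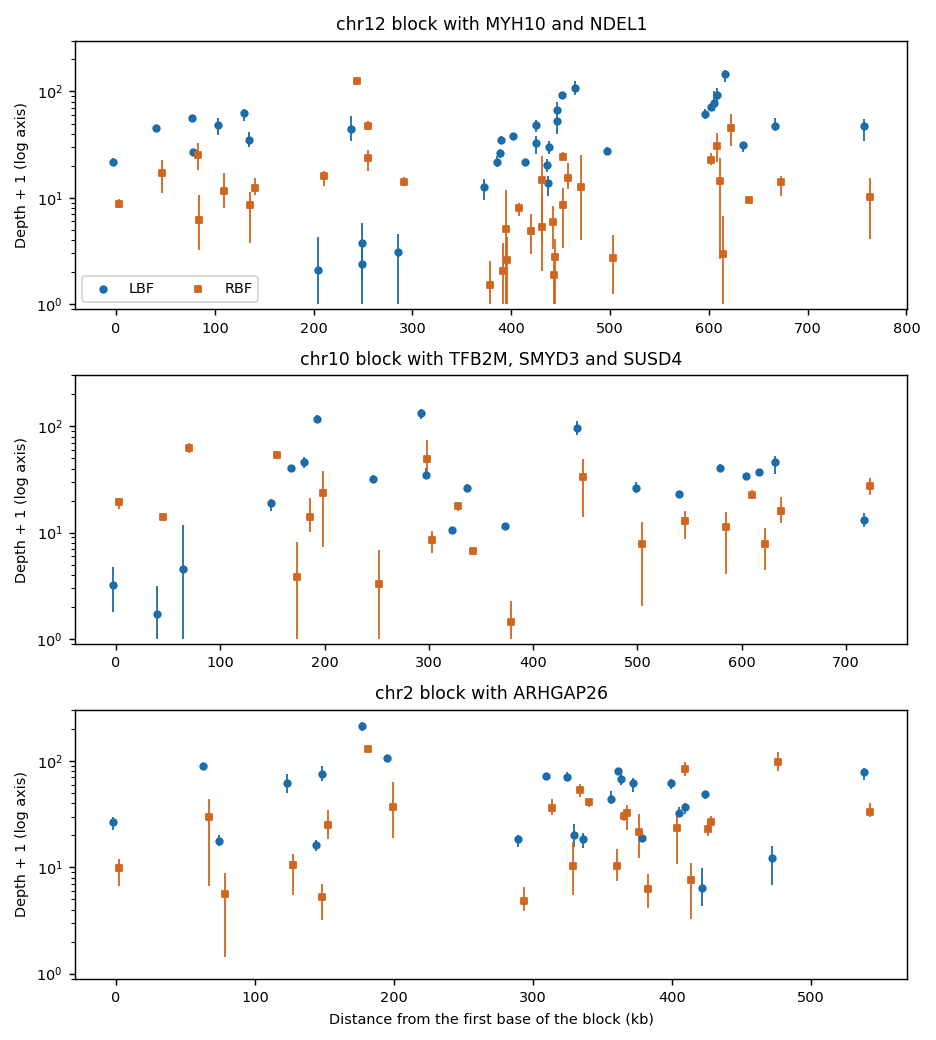
Normalized read depth plus 1 (log axis) against distance from the first base of the block (kb) for the DMRs of 3 blocks, with the mean of 3 pigs as a circle for LBF and a square for RBF, lines over the lowest and highest pig, and the breeds set slightly apart sideways. LBF lies below RBF in the run of 5 MYH10 DMRs (log2 fold changes -3.82 to -1.52) and the first 4 DMRs of the chr10 block, and above RBF at most other DMRs, including 16 of 21 in ARHGAP26.

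The largest increases in LBF were between genes, where 64.7% of all members lay. The largest decrease was in an intron of TFB2M and SMYD3 (-4.78). On chr7, 97 bp at chr7:2900310-2900406 in a CpG island shore had depths of 131, 94.9 and 116 in LBF, against 0, 6.25 and 0 in RBF (log2 fold change 5.88 with a standard error of 0.78, adjusted p = 0.0016 by limma). On chr12, chr12:56547148-56547282 had 79.7, 91.2 and 106 in LBF, against 0, 5.80 and 0 in RBF (5.61). In both, RBF replicate 2 was the only RBF pig with signal, and LBF was high in every pig.

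Chr18 had a large change in each direction less than 100000 bp apart. At chr18:2406736-2406858 depths were 0, 5.16 and 0 in LBF, against 32.8, 33.1 and 42.2 in RBF (-4.33), and at chr18:2460473-2460690 they were 56.0, 52.5 and 49.7 in LBF, against 0, 0.446 and 3.60 in RBF (4.84). Other intergenic members that led their block were higher in LBF at chr11:76824946-76825085 (4.16), chr7:10600477-10600591 (4.05), chr14:140440246-140440463 (4.05), chr14:142074861-142074997 (4.01) and chr7:4228663-4228806 (3.70). The last of these was among the most even, with 116, 117 and 109 in LBF, against 7.11, 7.29 and 9.25 in RBF. At chr12:60246220-60246351, by contrast, LBF was low, with 1.37, 1.93 and 6.33 in LBF, against 36.6, 39.1 and 28.0 in RBF (-3.25).

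In all, 70 of the 583 members had a log2 fold change above 3 and 10 below -3. Among the 12283 other autosomal DMRs the counts were 1072 and 111. At least 2 of 3 libraries were listed at 0 in LBF for 5 members and in RBF for 13. Mean depth was above 100 for 35 members in LBF and for 6 in RBF. For the counts at 0 and above 100, no share over all DMRs is given, so they are no result about the blocks.

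At the other end, 5 intergenic members did not pass limma. They were chr1:8543106-8543757 (log2 fold change 0.38, adjusted p = 0.074), chr7:10459549-10459639 (-0.40, 0.064), chr9:144662835-144662889 (-0.31, 0.12), chr14:140285432-140285739 (-0.28, 0.16) and chr18:4002221-4002267 (0.41, 0.052). Depths there were close between the breeds and even within them. The chr18 region had 43.7, 44.9 and 44.4 in LBF, against 33.8, 32.2 and 33.3 in RBF.

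Of 17 gene lists looked up, 14 had no member in the dense blocks. Olfactory receptors had 0 of 18 genes with a DMR in the table, solute carriers 0 of 60, ion channels 0 of 43, zinc fingers 0 of 33, and genes of adhesion and axon guidance 0 of 22. Members are only 4.12% of all listed DMRs, so an empty list is no result about the blocks. The breed selection list, also empty, includes KIT, whose block the rule leaves out. Protocadherins had 2 of 7, PCDH12 at its promoter and PCDH1 downstream, both higher in LBF (median log2 fold change 1.64, as over all DMRs). The PCDH1 depths were 27.0, 35.3 and 42.0 in LBF, against 14.6, 10.3 and 9.29 in RBF. The lipid and ABC transporter lists had 1 gene each, as given above. Most lists are symbol families and miss members under other names, such as the channel PKD2 and the auxiliary channel subunit DPP6. The lipid, breed selection and imprinted lists are sets of picked genes, and the lipid list leaves out LPGAT1 and PPAPDC1A. The counts of the lists were not tested.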

How the data were processed

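MeDIP-seq libraries of backfat from 3 Landrace and 3 Rongchang pigs were compared. The authors removed poor reads, used SOAP2 to align the others to Sscrofa10.2 (build named in the submitters' processing notes), counted reads at several places as 1 read and joined differing CpGs into DMRs of at least 5 CpGs. The deposited signal is a normalized coverage, with 1 value per DMR and library. For its chromosome profiles the study scaled depth to a breed's average number of reads, and the sources used here do not say whether the DMR depths were scaled this way. The total number of reads of each library was not used here. The tests use the spread between the 3 pigs of each breed. The authors' P and FDR columns were not used. Symbols are the human homologues in the deposited table. No genome of this build was used, so no sequence or copy number was computed.

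The test of each DMR was limma (version 3.58.1, in R 4.3.3), with breed as the sole factor, on log2(depth + 1), and used Benjamini-Hochberg adjustment over 14163 DMRs, threshold 0.05. The code was tested on simulated data. Blocks and tables were made with python 3.11.15, pandas 2.3.3, numpy 2.4.6 and scipy 1.17.1. The rule for named DMRs took, in each block, the largest absolute log2 fold change at a mean depth of at least 10, every DMR in a promoter or exon of a transcript with a symbol, the gene with most DMRs, genes of the lists, and the 5 largest changes in each direction. It named 62 DMRs. Other DMRs were named after their values were seen. The members and lists were chosen with earlier results of these data known. Alternatives were equal library medians, other pseudocounts (0.5 and 5), linear depth, a minimum mean depth of 10, at least 10 CpGs, autosomes only, leaving out each replicate, a block for the replicate number, and other rules for the dense blocks.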

Additional observations from a re-analysis of the deposited data

How the results depend on the processing

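All 62 named DMRs kept direction and call without any single replicate, with pseudocounts of 0.5 and 5, on autosomes only and with the replicate number as a block. The size of a change at low depth depends on the pseudocount, and with 5 it moved by more than 1.5 times in 19 of the 62, to 1.54 at HMX1, 1.95 at the ABCG2 intron DMR and 1.58 at the middle MYH10 promoter DMR. Leaving out 1 replicate gave 560 to 579 called members and a median log2 fold change of 1.42 (without RBF replicate 3) to 1.74. Equal library medians gave 73 members called higher in LBF, 60.9% higher by log2 fold change (59.8% of all DMRs) and a median of 0.26 (0.23 over all DMRs), kept 164 of the 578 calls and turned 142 members. Named DMRs turned at MAP3K4 (-0.19), AGPAT4 (-0.30), CD83 (-0.44), ABCG2 (-0.45), INTS7 (-0.57), PFAS (-0.066), KRBA2 (-0.26) and ELAC2 (-0.062), as did the medians of the PKD2 (-0.12) and RALA (-0.085) blocks, and 24 further named DMRs lost their call. With at least 10 CpGs, 171 members were tested, 162 were called higher and 8 lower, and 95.3% were higher, beside 96.2% of all DMRs with as many CpGs. The cause of that share was not tested. The median of the RANBP9 block, then of 4 DMRs, was -0.10. Linear depth called 582 members and gives no log2 values.

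The blocks depend on their rule. Gaps of at most 50000 bp gave 1 block with 21 DMRs, and gaps of at most 200000 bp gave 96 blocks with 3406. At least 15 DMRs gave 64 blocks with 1270 DMRs, and at least 30 gave 3 blocks with 112.

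Replicate numbers were treated as names only. Same-numbered LBF and RBF libraries deviated together at r = 0.06, -0.01 and 0.06. With 3 libraries per breed, such values cannot exclude that the numbers pair the pigs. The paper names a paired t-test for some of its breed comparisons. With the replicate block 569 of the 578 member calls were kept, and of all DMRs 11786 were called higher and 2062 lower, against 11966 and 2132 without the block. Among the limits, the depth of libraries outside the DMRs was not analysed here, only listed DMRs enter any share, and members of a block share chromosome and neighbours and are not independent.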
